A study of Mus musculus with 9 samples.

Results

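The 9 genes described here write, erase or read methylation of cytosine in DNA, and their transcripts were followed in microglia, the brain's own macrophages. The cells were sorted from visual cortex, and the donors were C57BL/6 males in adolescence. They are 3 methyltransferases (Dnmt1, Dnmt3a, Dnmt3b), 3 dioxygenases (Tet1, Tet2, Tet3) and 3 proteins that bind methylated DNA or belong to complexes that do (Mbd2, Mbd3, Uhrf1). The genes were taken by symbol, with earlier results of these data known, as 9 of the 45664 symbols in the count table. All 9 were among the 13067 genes with enough counts to be tested. The EtOH mice (4) received ethanol at 1.8 g per kg in a 20% v/v solution under the skin of the back, 2 injections a day 2 h apart and 3.6 g per kg a day, from postnatal day 4 to 9. The Saline mice (5) received the same volume of saline on the same days. EtOH 1 to EtOH 4 were 35, 35, 30 and 30 days old at collection, and Saline 1 to Saline 5 were 36, 30, 35, 29 and 30 days old. Each library came from the live CD11b positive, CD45 low cells of 1 mouse, so the spread between libraries holds mouse, sort and library preparation together. The litter of each mouse was not analysed here.

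In mammals most methylation sits on cytosine followed by guanine (CpG). Dnmt3a and Dnmt3b methylate new sites, while Dnmt1 copies the pattern onto the daughter strand after replication, led there by Uhrf1, which recognises hemimethylated sites. The Tet enzymes oxidise methylcytosine, the first step of its removal, and Mbd2 and Mbd3 are alternative subunits of the NuRD repressor complex, of which Mbd2 binds methylated CpG and Mbd3 in mammals largely does not. Microglia in the adolescent brain rarely divide, and Tet2 and Dnmt3a are known as regulators of inflammatory genes in myeloid cells.

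Library totals were 12816198 to 28859244 counts, and EtOH 2, at 23723166, was the second deepest. The microglia markers Csf1r, Cx3cr1, P2ry12 and 9 others were all detected and summed to 60562 to 70545 CPM (the count as a share of the TMM-scaled library size) in EtOH mice and 60435 to 69273 CPM in Saline mice. Neuron markers summed to 76.0 to 290.3 CPM in EtOH mice, against 4.15 CPM in Saline 1 and up to 240.2 CPM in the other Saline mice. Kif5a led them, at a mean of 126 CPM. Oligodendrocyte markers summed to 231 to 267 CPM in EtOH and 199 to 262 CPM in Saline mice, led by Cnp, while Mog was under 0.5 CPM in every library. Endothelial and pericyte markers summed to 59.5 to 79.6 and 69.0 to 87.5 CPM in EtOH and Saline mice, mostly Pecam1, with 5 of the 8 genes, Cldn5 among them, under 0.5 CPM throughout. Lymphocyte markers summed to 46.5 to 68.9 CPM in EtOH and 44.8 to 53.2 CPM in Saline mice, nearly all of it Cd79b, with the other 7 genes under 0.5 CPM. Monocyte and neutrophil markers reached 16.0 CPM in EtOH and 7.66 CPM in Saline mice, and erythroid markers stayed under 1 CPM. Astrocyte markers summed to 321 to 439 CPM in EtOH and 271 to 461 CPM in Saline mice, led by Slc1a3 at a mean of 281 CPM. Border macrophage markers summed to 39.3 to 92.0 CPM in EtOH and 48.4 to 82.0 CPM in Saline mice, led by Mrc1 at a mean of 57.4 CPM. Saline 1 and EtOH 2 stood apart from the rest. Saline 1 nearly lacked neuronal transcripts, and EtOH 2 held the lowest value of the 9 libraries for 25.7% of the genes tested and the highest for 22.6%. Ethanol against saline is therefore given with and without EtOH 2.

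The promoters of these genes hold from few to very many of the CG dinucleotides that their products act on. RefSeq (GRCm38.p6) gives 13 start sites for 8 of the genes, each with a window of 300 bases (250 before to 50 after the start), and 12 of the 13 windows held more CG dinucleotides than the median of 7 over 32851 mouse windows. Tet2 had the most, 57, a number reached by 0.2% of all windows. The windows of Dnmt3a held 47, 46 and 18, reached by 1.4%, 1.6% and 29.7% of all windows. That of Dnmt3b held 30 (11.7%), those of Mbd3 and Tet3 22 each (23.1%) and that of Tet1 17 (31.4%). Those of Uhrf1 held 33 (8.6%) and 12 (39.6%), and those of Dnmt1 33 (8.6%), 12 (39.6%) and 2 (85.9%). Printed here, with each CG in capitals, are the 250 bases before a start of the most and the least abundant writer, the eraser with the highest mean level and the least abundant reader. Of the starts of each gene, the one with no annotated exon in those bases is shown, which for Dnmt3a and Uhrf1 is a CG-dense one, so the sequences do not stand for all starts.
Dnmt3a, chr12:3806730-3806979, plus strand: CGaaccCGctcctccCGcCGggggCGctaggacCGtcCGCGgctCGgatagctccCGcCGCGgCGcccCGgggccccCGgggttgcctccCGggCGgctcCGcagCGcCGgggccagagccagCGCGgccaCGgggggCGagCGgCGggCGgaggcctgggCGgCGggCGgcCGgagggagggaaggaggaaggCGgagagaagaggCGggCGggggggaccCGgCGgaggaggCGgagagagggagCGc
Dnmt3b, chr2:153649199-153649448, plus strand: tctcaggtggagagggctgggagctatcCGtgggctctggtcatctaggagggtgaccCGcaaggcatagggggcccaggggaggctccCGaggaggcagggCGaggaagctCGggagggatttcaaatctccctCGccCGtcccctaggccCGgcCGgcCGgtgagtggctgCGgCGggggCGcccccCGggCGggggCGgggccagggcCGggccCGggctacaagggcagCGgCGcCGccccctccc
Tet2, chr3:133544391-133544640, minus strand: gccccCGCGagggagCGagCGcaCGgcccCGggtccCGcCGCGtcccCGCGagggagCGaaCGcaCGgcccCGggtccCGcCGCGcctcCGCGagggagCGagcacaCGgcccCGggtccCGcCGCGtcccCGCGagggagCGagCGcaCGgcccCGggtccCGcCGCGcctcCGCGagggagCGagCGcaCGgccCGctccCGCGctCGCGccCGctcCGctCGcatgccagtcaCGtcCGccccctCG
Uhrf1, chr17:56304063-56304312, plus strand: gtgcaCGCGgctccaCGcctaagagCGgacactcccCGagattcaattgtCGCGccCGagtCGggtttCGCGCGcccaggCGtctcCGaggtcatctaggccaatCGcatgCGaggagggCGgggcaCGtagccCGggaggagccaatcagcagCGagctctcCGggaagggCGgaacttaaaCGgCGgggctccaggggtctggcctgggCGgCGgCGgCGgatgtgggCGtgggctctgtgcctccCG

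Dnmt1 was the only one of the 8 genes whose windows held the palindromic core site of NRF1, an activator of nuclear genes for mitochondria whose binding is known to be blocked by CpG methylation. It lay in 2 of the 3 windows of Dnmt1, 14 and 29 bases after the annotated start, and in 0.971% of all windows. The motif is in capitals in the sequences below.
Dnmt1, chr9:20952590-20952619, minus strand: cagccagggcGCGCATGCGCggggcagcgt
Dnmt1, chr9:20952931-20952960, minus strand: cctccgttgcGCGCATGCGCactcccttcg
TTTGGCGC, a form of the E2F site of S-phase genes, was found on either strand in 1 window, also of Dnmt1 (0.514% of all windows), and TTTCCCGC, another form, in none of the 13 (1.07%). CCAAT, read on both strands, was present in windows of Dnmt1, Mbd3, Tet3 and Uhrf1, 6 of 13, against 37.4% of all windows. Each was searched separately, with overlaps between motifs allowed, and the matches are of letters only.

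All 9 transcripts were detected in every library. Levels of different genes are compared as CPM divided by the length in kb of all annotated exons of the gene (GENCODE M21, GRCm38), averaged over the 9 libraries. Mbd3 was highest, at 39.3 ± 4.57 CPM per kb (SD, n = 9), above 92.1% of the 12382 genes with a length. Dnmt3a (9.43 ± 1.44) and Mbd2 (9.40 ± 1.67) came next and could not be ordered, since Dnmt3a was the higher of the pair in 4 of 9 libraries. Tet2 (6.02 ± 1.10), Dnmt1 (5.72 ± 1.29) and Tet3 (5.42 ± 1.37) likewise overlapped, with each neighbour above the next in 5 of 9 libraries, and lay close to the median gene at 5.33 CPM per kb. Tet1 followed at 1.83 ± 0.106, Dnmt3b at 1.33 ± 0.261 and Uhrf1 at 0.328 ± 0.199 CPM per kb. Tet1 was above Dnmt3b, and Dnmt3b above Uhrf1, in all 9 libraries. With the length of the longest transcript in place of all exons, Tet2 was above Tet3 in 9 of 9 libraries. By that length Tet3, at a mean of 8.30 CPM per kb, was above Dnmt1, at 7.18 CPM per kb, in 5 of 9 libraries. Tet1 (1.97) was then above Dnmt3b (1.57) in 8 of 9.

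**Figure D1:**
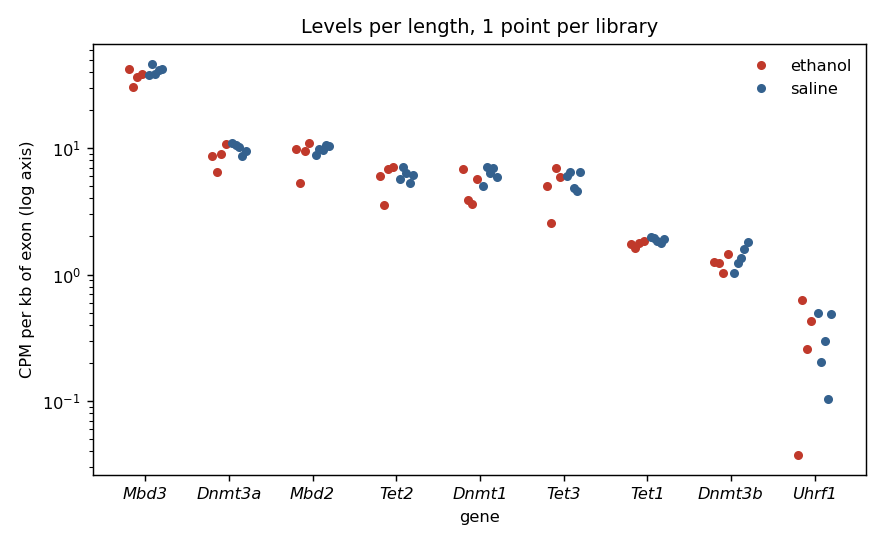
Level of each gene per kb of annotated exon in each library (log axis), EtOH libraries in red and Saline libraries in blue, genes ordered by their mean. Mbd3 lies above the other genes at 39.3 CPM per kb, Dnmt3a and Mbd2 overlap at 9.43 and 9.40, and Uhrf1 is lowest at 0.328.

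In ethanol against saline none of the 9 transcripts passed the test. Of all 13067 genes tested, 0 passed (0%) in edgeR's quasi-likelihood test at an adjusted p under 0.05, and 386 (2.95%) had an unadjusted p under 0.05, 201 of them lower (1.54%), and none was a gene of this set. Leaving out 1 library gave 299 to 768 such genes, the highest count being that without EtOH 4. Dnmt3a was among them without EtOH 4 (log2 fold change -0.32, adjusted p = 0.801, edgeR) and Dnmt1 without EtOH 1 (-0.51, adjusted p = 0.918, edgeR). Without EtOH 2 again 0 of 13281 genes passed, 367 (2.76%) had an unadjusted p under 0.05, 191 of them lower (1.44%), and none was of this set. DESeq2 and limma-voom also called 0 genes, with 435 and 504 under the unadjusted threshold. Fold changes of the set were small, from -0.33 to 0.12 on the log2 scale, with a median of -0.15. They lay below 0 for 8 of 9 genes, against 50.2% of all genes, and without EtOH 2 for 6 of 9, against 50.4% of all genes, with a median of -0.08. The median over all genes was -0.00068 with EtOH 2 and -0.0013 without it. The ranges of the 2 groups overlapped for all 9 genes, and 1.29% of all genes had ranges that did not (2.65% without EtOH 2). For 8 of the 9 genes, all but Uhrf1, the 95% interval excluded a change of 2-fold or more, as it did for 79.3% of all genes. Beside these values, all 8 astrocyte markers and all 7 tested neuron markers had log2 fold changes above 0 (medians 0.68 and 0.36), and the 4 tested border macrophage markers had values below 0 (median -1.02). Without EtOH 2, 7 of 8 astrocyte and 7 of 7 neuron markers were above 0 (medians 0.56 and 0.48) and 5 of 5 border macrophage markers below 0 (median -1.34). These medians count each gene alike, whatever its level. Saline 1, kept in both fits, had neuron markers at 4.15 CPM in sum. The other Saline mice had 122 to 240 CPM and the EtOH mice 76.0 to 290 CPM. Saline 1 was also lowest of the 9 libraries in summed astrocyte markers, at 271 CPM. Mrc1, with the highest CPM of the border macrophage list (mean 57.4), was at -0.28, and at -0.15 without EtOH 2. Slc1a3, with the highest CPM of the astrocyte list (mean 281), was at 0.06, and at -0.02 without EtOH 2. Kif5a, the highest neuron marker, was at 0.24, and at 0.48 without EtOH 2. None of these markers passed either, and their part in the values of the 9 genes was not tested. In sorted cells as in any bulk sample, fewer expressing cells and less RNA per cell cannot be told apart.

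**Figure D2:**
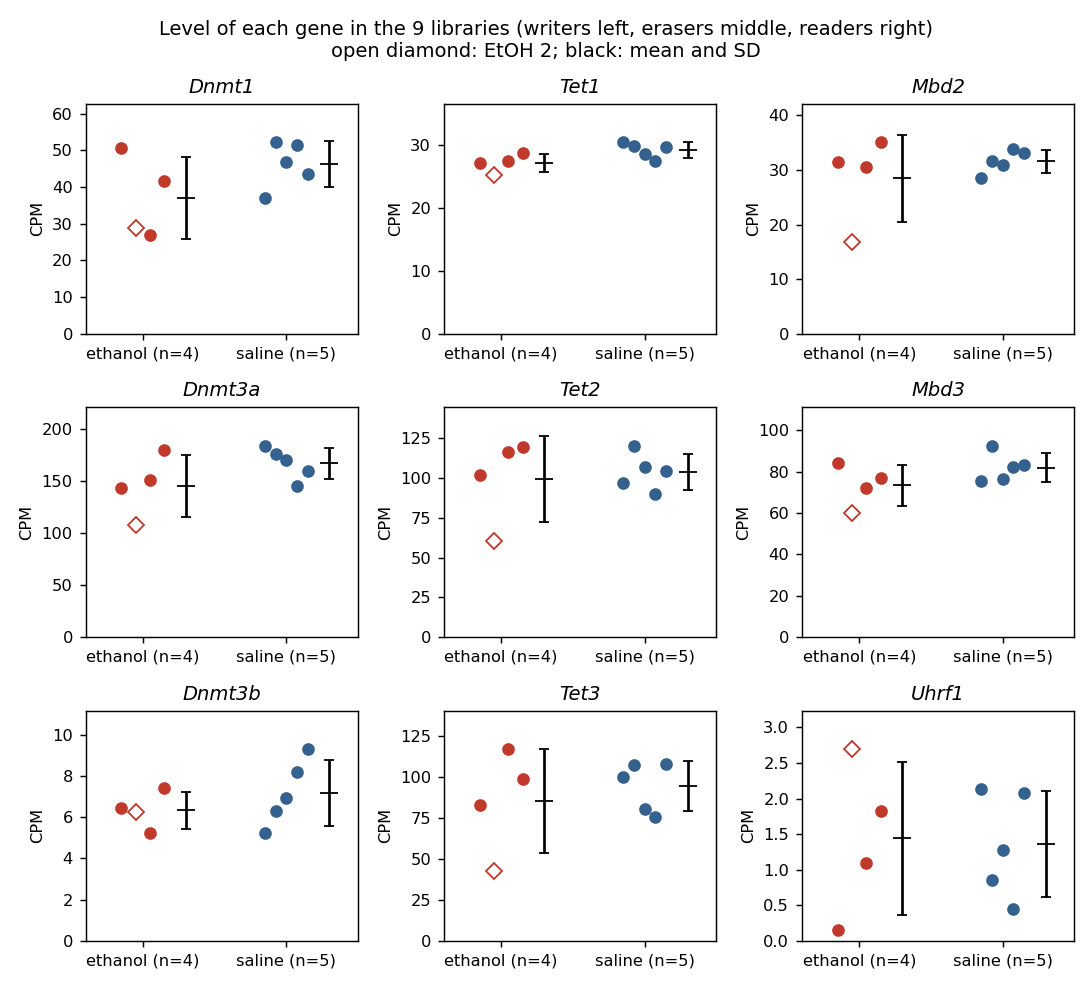
CPM of each gene in each library, with writers in the left column, erasers in the middle and readers on the right, EtOH libraries left of Saline libraries in each panel, the open diamond marking EtOH 2 and the black bar the mean and SD. EtOH 2 is the lowest of the 9 libraries in 6 panels and the highest in that of Uhrf1, at 2.69 CPM.

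Dnmt1, the maintenance methyltransferase (chromosome 9, 20907209 to 20959888), had 50.7, 28.9, 26.8 and 41.7 CPM in EtOH 1 to EtOH 4, against 37.2, 52.3, 46.9, 51.4 and 43.7 CPM in Saline 1 to Saline 5. EtOH 2 and EtOH 3 were below every Saline library, and EtOH 1 lay within the Saline range. Its log2 fold change of -0.33 ± 0.19 (SE; 95% interval -0.74 to 0.08; adjusted p = 0.963, edgeR) was the one farthest from 0 in the set, and it was -0.23 ± 0.18 without EtOH 2. Dnmt3a, the main methyltransferase for new sites (chromosome 12, 3806007 to 3914443), had 143, 107, 150.4 and 179 CPM in EtOH 1 to EtOH 4, against 184, 176, 169.8, 145 and 159 CPM in Saline 1 to Saline 5. EtOH 2 was lowest and the other EtOH libraries lay within or just under the Saline range. The log2 fold change was -0.20 ± 0.13 (-0.49 to 0.09; adjusted p = 0.963, edgeR), and -0.08 ± 0.09 without EtOH 2. Dnmt3b, its paralogue, active mostly in early embryos (chromosome 2, 153649450 to 153687730), had 6.43, 6.26, 5.22 and 7.41 CPM in EtOH 1 to EtOH 4, against 5.21, 6.28, 6.92, 8.19 and 9.29 CPM in Saline 1 to Saline 5. The EtOH values all lay inside the Saline range, and the log2 fold change was -0.18 with EtOH 2 and -0.18 without it. The ratio of Dnmt3a to Dnmt1 CPM, which is not corrected for length and can be read between libraries only, was 2.83, 3.71, 5.61 and 4.30 in EtOH 1 to EtOH 4, against 4.94, 3.36, 3.62, 2.81 and 3.64 in Saline 1 to Saline 5. The groups overlapped, with EtOH 3 highest and Saline 4 lowest.

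Tet2, the eraser with the highest mean level per kb (chromosome 3, 133463679 to 133545139), had 102, 60.3, 116 and 119 CPM in EtOH 1 to EtOH 4, against 96.5, 120.1, 106, 89.9 and 104 CPM in Saline 1 to Saline 5. EtOH 2 was well under all other libraries, whereas EtOH 3 and EtOH 4 stood near the top of the Saline range. The log2 fold change was -0.06 ± 0.18 (-0.45 to 0.33; adjusted p = 0.980, edgeR) over all libraries and 0.12 ± 0.10 (-0.09 to 0.32) without EtOH 2, so the sign turned. Tet3 (chromosome 6, 83362373 to 83459084), which carries a DNA-binding CXXC domain that Tet2 has lost, had 83.0, 42.6, 117 and 99.3 CPM in EtOH 1 to EtOH 4, against 100.01, 108, 80.8, 75.8 and 108 CPM in Saline 1 to Saline 5. EtOH 2 was again far under the rest and EtOH 3 the highest of all. Its log2 fold change was -0.15 ± 0.25 (-0.69 to 0.40; adjusted p = 0.966, edgeR), and 0.08 ± 0.14 without EtOH 2. Tet1 (chromosome 10, 62804570 to 62908996), best known from embryonic stem cells, had 27.2, 25.2, 27.4 and 28.7 CPM in EtOH 1 to EtOH 4, against 30.4, 29.9, 28.5, 27.4 and 29.7 CPM in Saline 1 to Saline 5. The libraries were close to each other, with EtOH 2 lowest, EtOH 1 just under the Saline range and the others inside it. The log2 fold change was -0.11 ± 0.08 (-0.29 to 0.08), and -0.08 ± 0.09 without EtOH 2.

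Mbd3, a core subunit of NuRD (chromosome 10, 80392539 to 80399550), had 84.2, 60.1, 72.2 and 76.9 CPM in EtOH 1 to EtOH 4, against 75.3, 92.6, 76.5, 82.4 and 83.1 CPM in Saline 1 to Saline 5. EtOH 2 was lowest and EtOH 3 also lay under the Saline range. The log2 fold change was -0.16 ± 0.11 (-0.39 to 0.07; adjusted p = 0.963, edgeR), and -0.08 ± 0.09 without EtOH 2. Mbd2, the methyl-CpG binding alternative to Mbd3 (chromosome 18, 70568189 to 70626131), had 31.4, 16.9, 30.5 and 35.1 CPM in EtOH 1 to EtOH 4, against 28.5, 31.7, 30.9, 33.8 and 33.1 CPM in Saline 1 to Saline 5. EtOH 2 was far under every other library, and the remaining EtOH libraries lay within or just above the Saline range. The log2 fold change was -0.15 ± 0.18 (-0.54 to 0.24), and 0.03 ± 0.10 without EtOH 2. Uhrf1 (chromosome 17, 56303321 to 56323486) rested on few reads, 2, 65, 19 and 37 counts in EtOH 1 to EtOH 4, against 38, 25, 26, 8 and 44 counts in Saline 1 to Saline 5. That is 0.159, 2.69, 1.09 and 1.83 CPM in EtOH mice, against 2.13, 0.862, 1.28, 0.443 and 2.09 CPM in Saline mice. The EtOH group held both the lowest and the highest library, and the 95% Poisson intervals of these, 0.242 to 7.22 counts in EtOH 1 and 50.2 to 82.8 counts in EtOH 2, were far apart (they cover counting error only). The log2 fold change was 0.12 ± 0.62 (-1.24 to 1.49), and -0.36 ± 0.65 without EtOH 2.

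Genes of DNA replication were read beside Uhrf1, which is known for its high level in S phase. Mki67 and Top2a, markers of dividing cells with too few counts to be tested, reached 0.332 and 0.539 CPM in EtOH 2. In the other 8 libraries they reached at most 0.172 and 0.379 CPM. Both were named with their values known. Ccnb1 and Rrm2, also not tested over all 9 libraries, were not raised in EtOH 2. Ccnb1 was at 0.041 CPM there, against 0.056 to 0.890 CPM in the other 8 libraries. Rrm2 was at 0 CPM there, against 0 to 0.379 CPM. Of the 12 tested genes of replication and cell cycle, 1 (Mcm5) was lowest in EtOH 2, against 25.7% of all genes. Their median log2 difference from the other 8 libraries was 0.28, against 0.02 over all genes. The 16 replication and cell cycle genes together summed to 198, 229, 203 and 179 CPM in EtOH 1 to EtOH 4, against 215, 193, 204, 213 and 196 CPM in Saline 1 to Saline 5. EtOH 2, with the highest Uhrf1, thus also had the highest sum, but EtOH 1 and Saline 4, with the lowest Uhrf1, did not have the lowest. Their part in the Uhrf1 values was not tested.

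**Figure D3:**
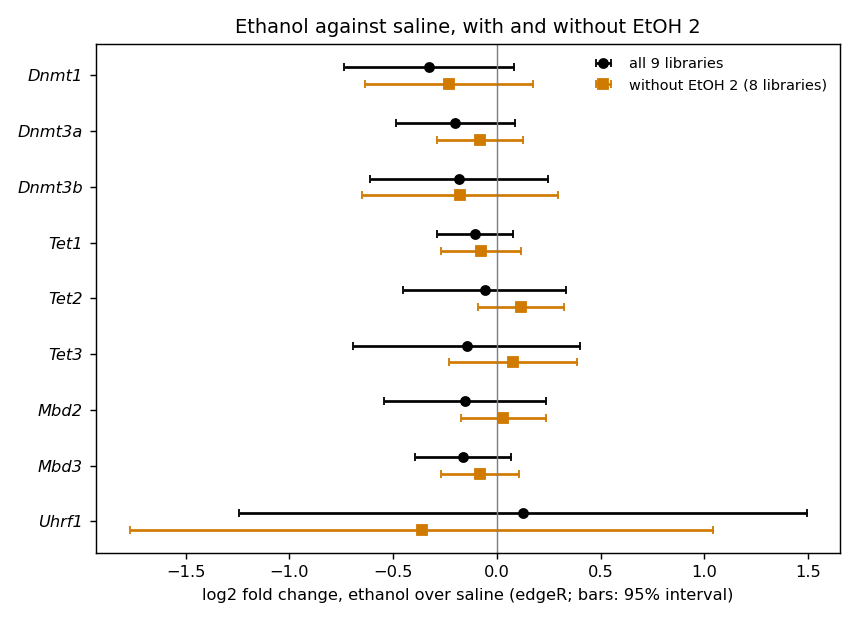
Log2 fold change of each gene, ethanol over saline, with its 95% interval from edgeR, over all 9 libraries (black circles) and without EtOH 2 (orange squares). All intervals include 0, and without EtOH 2 the values of Tet2, Tet3 and Mbd2 are above 0, at 0.12, 0.08 and 0.03.

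The genes differed in how much they varied between mice. The SD of log2 CPM within the groups was 0.07 for Tet1, about the 0.06 that counting error alone gives at its 342 to 866 counts, and 0.818% of the 2078 genes at a similar level (within 0.5 on the log2 scale) had a smaller one. Tet3 stood at the other end with an SD of 0.46, larger than in 94.98% of 1732 genes of its level, and 0.24 without EtOH 2, still larger than in 94.0% of them. For Mbd2 the SD was 0.32 with EtOH 2 and 0.10 without it, and for Tet2 0.32 and 0.15. Dnmt1 was wide with that library (0.32) and without it (0.32), without it above 96.9% of genes of its level, and EtOH 3 was also low. Uhrf1 had an SD of 1.18 where counting error gives 0.44. These figures are a description of the libraries, with no test.

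EtOH 2 stood apart from the other libraries in this set. It held the lowest value of the 9 libraries for 6 of 9 genes (Dnmt3a, Tet1, Tet2, Tet3, Mbd2, Mbd3), against 25.7% of all genes, and lay more than 0.5 below the mean of the other 8 on the log2 scale for 5 of 9, against 21.5% of all genes. It lay more than 1 below for 1 of 9, Tet3, against 9.62% of all genes. The difference was -1.16 for Tet3, -0.91 for Mbd2, -0.82 for Tet2, -0.60 for Dnmt3a, -0.57 for Dnmt1, -0.41 for Mbd3, -0.18 for Tet1 and -0.11 for Dnmt3b. Uhrf1 went the other way at 1.35. EtOH 2 had an RNA integrity number of 9.2 (9.0 to 9.9 in the other libraries), 12579 sorted cells (8923 to 19071) and 238 pg per µl of RNA (166 to 330), none at an extreme of the 9. No other library was lowest for more than 1 of the 9 genes.

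**Figure D4:**
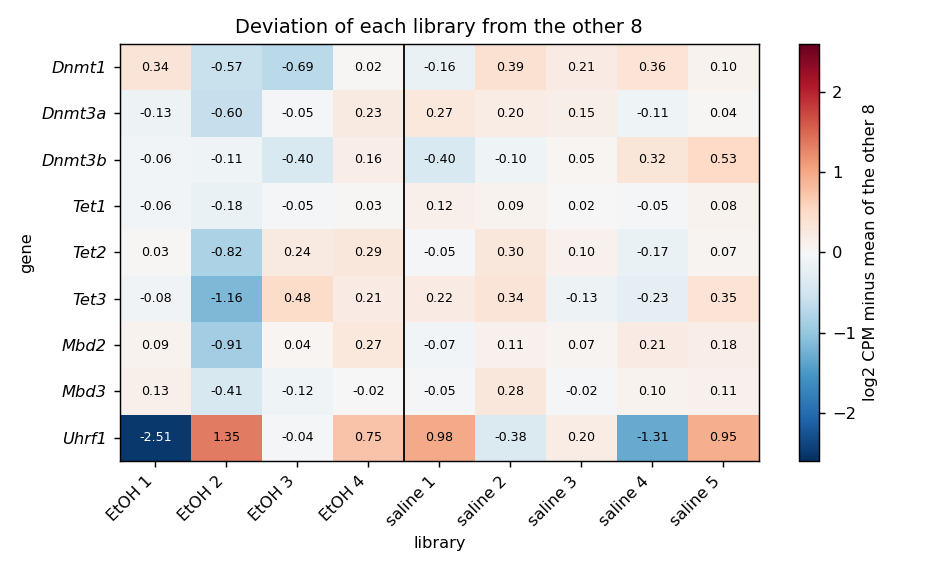
Log2 CPM of each gene in each library minus its mean in the other 8 libraries (colour scale and printed value), EtOH libraries left of the line and Saline libraries right of it. The column of EtOH 2 is below 0 for 8 genes, lowest at -1.16 for Tet3, and above 0 for Uhrf1, at 1.35.

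The genes more than 2-fold below the other libraries in EtOH 2 had long transcripts of higher GC content, with a median longest transcript of 5041 nucleotides and 52.5% GC over 1171 genes, against 3279 nucleotides and 49.4% GC over the 12382 tested genes with a length. The 9 genes described here had medians of 5870 nucleotides and 53.4% GC. Tet1 and Tet2, at 43.7% and 45.4% GC, lay below the median of the tested genes. When a smooth trend of log2 CPM on GC content and transcript length was removed from each library, the difference of EtOH 2 was 0.03 for Tet3, -0.12 for Tet2, 0.06 for Dnmt1, 0.43 for Dnmt3a and 0.70 for Tet1, the gene with the longest transcript (14369 nucleotides). It was -0.99 for Mbd2 and -0.35 for Mbd3, which have short transcripts (1953 and 1662 nucleotides). For Dnmt3b and Uhrf1 it was 0.15 and 1.46. The same removal was made in ethanol against saline over all libraries. Log2 fold changes were then 0.08 for Dnmt3a, 0.15 for Tet1, 0.09 for Tet2 and 0.10 for Tet3. Each of these was of the opposite sign to the value without the removal. For Dnmt1, Dnmt3b, Mbd2, Mbd3 and Uhrf1 they were -0.17, -0.10, -0.16, -0.13 and 0.18. The part of GC content and length in the low values of EtOH 2 was not tested.

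**Figure D5:**
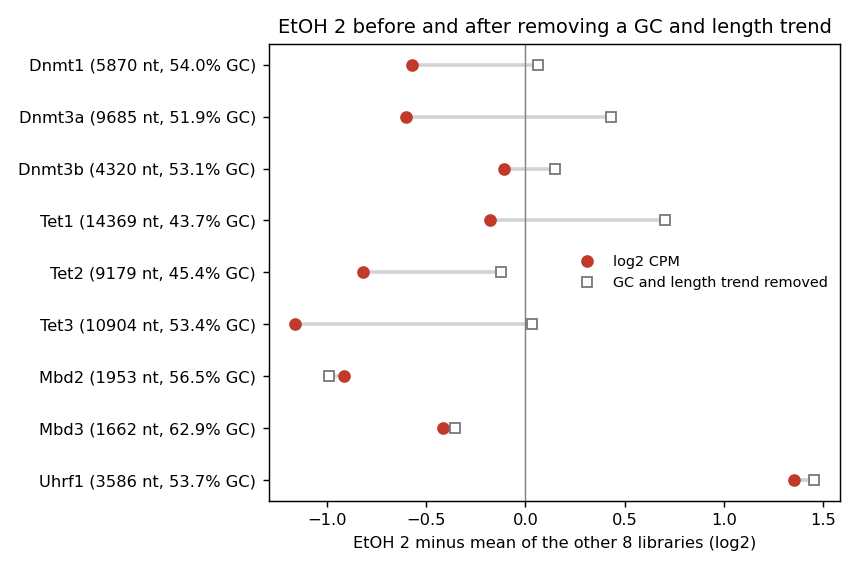
Log2 difference of EtOH 2 from the mean of the other 8 libraries for each gene, as measured (red circles) and after removing a trend on GC content and transcript length (open squares), with the longest transcript and its GC content beside each name. Tet3 is at -1.16 and 0.03, while Mbd2 is at -0.91 and -0.99.

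Age and its interaction with ethanol gave no call in this set either. Between the 4 older (35 and 36 days) and the 5 younger mice (29 and 30 days), with treatment in the fit, 0 of 13067 genes passed (0%) in edgeR, 372 (2.85%) had an unadjusted p under 0.05, 229 of them lower (1.75%). DESeq2 called 0 genes, with 451 under the unadjusted threshold. Library names end in 1-5-16 for the older EtOH 1, EtOH 2 and Saline 3 and the younger Saline 4. The ending is 1-X-16 for the older Saline 1 and 1-6-16 for the other younger mice. What the endings stand for is not stated, and their part in the age and interaction values was not tested. Log2 fold changes of the 9 genes, older over younger, ran from -0.41 for Tet3 to 0.33 for Uhrf1 (adjusted p from 0.973 to 0.991, edgeR), with 8 of 9 below 0, against 54.8% of all genes. Tet3 averaged 76.6 ± 24.2 CPM in older (SD, n = 4) and 102 ± 15.8 CPM in younger mice (SD, n = 5), and Mbd2 averaged 26.9 ± 6.82 CPM in older and 32.9 ± 1.81 CPM in younger mice. EtOH 2 is one of the older mice, and without it the log2 fold changes were -0.20 for Tet3, -0.11 for Mbd2, -0.10 for Tet2, -0.05 for Mbd3 and -0.23 for Dnmt3b. Those of Dnmt1 (0.07), Dnmt3a (0.03), Tet1 (0.0029) and Uhrf1 (-0.21) had the opposite sign to the values with EtOH 2. Neuron markers were below 0 in 7 of 7 and astrocyte markers in 7 of 8 (medians -0.92 and -0.91). Slc1a3, the astrocyte marker with the highest CPM, was above 0, at 0.17. Saline 1, with 4.15 CPM of neuron markers in sum, is also one of the older mice. The older EtOH 1, EtOH 2 and Saline 3 had 159, 76.0 and 157 CPM, against 111 to 290 CPM in the younger mice. Of these markers 0 passed, and their part in the values of the 9 genes was not tested.

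The interaction asks whether the ethanol difference differed between the older and the younger mice. In edgeR's test 0 of 13067 genes passed (0%) and 423 (3.24%) had an unadjusted p under 0.05, 250 of them below 0 (1.91%). DESeq2 called 1 gene, none of the 9. Interactions were below 0 for 6 of the 9 genes, against 51.2% of all genes. Dnmt3a alone among the 9 had an unadjusted p under 0.05 (log2 interaction of -0.54, 95% interval -1.05 to -0.03, adjusted p = 0.972). In the older mice Dnmt3a had 143 and 107 CPM in EtOH 1 and EtOH 2, against 184 and 169.8 CPM in Saline 1 and Saline 3. In the younger mice it had 150.4 and 179 CPM in EtOH 3 and EtOH 4, against 176, 145 and 159 CPM in Saline 2, Saline 4 and Saline 5. Within the older mice alone the ethanol fold change of Dnmt3a was -0.50 on the log2 scale (adjusted p = 0.988, edgeR), and within the younger mice alone 0.04. For Dnmt1 it was -0.08 within the older and -0.52 within the younger mice (adjusted p = 1.000, edgeR, under the unadjusted threshold), and its interaction was 0.43 (adjusted p = 0.972). The interaction of Dnmt3a was -0.35 without EtOH 2 (adjusted p = 1.000). That of Dnmt3a was -0.73 without EtOH 1 (adjusted p = 0.0544), a fit in which EtOH 2 alone stood for the older EtOH mice, assumed to vary like the other groups. In that fit 848 genes passed, Tet2 (-0.89, adjusted p = 0.0322) and Tet3 (-1.21, adjusted p = 0.0369) among them. Without EtOH 2, 0 genes passed, and Tet2 and Tet3 had interactions of -0.17 and -0.28. Over all 9 libraries the interactions of Tet2 and Tet3 were -0.50 and -0.69, both with adjusted p = 0.972.

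Partners of these proteins were read from lists of genes of the same pathway. In ethanol against saline 0 genes of these lists passed in edgeR. Of the other methyl-CpG readers and partners of the DNA methyltransferases, 12 of 13 were tested. Log2 fold changes lay below 0 for 11 of them, against 50.2% of all genes, and the median was -0.13. Without EtOH 2 it was 7 of 12, against 50.4% of all genes, with a median of -0.04. Cxxc5, a protein with a CXXC domain, had the highest CPM, at 213 ± 22.2 CPM in EtOH mice (SD, n = 4) and 210.5 ± 4.88 CPM in Saline mice (SD, n = 5). Zbtb4, a zinc finger reader of methylated DNA whose p was the lowest among them, averaged 21.2 ± 5.23 CPM in EtOH and 25.8 ± 1.61 CPM in Saline mice (log2 fold change -0.29 ± 0.15, adjusted p = 0.963, edgeR), and the change was -0.15 without EtOH 2. Dnmt3l, the germ cell cofactor of the de novo enzymes, was under 0.5 CPM in every library. In EtOH 2, 9 of the 12 held their lowest value, against 25.7% of all genes. Usp7, the deubiquitinase that stabilises Dnmt1 and Uhrf1, was at 38.6 CPM there and at 129 to 148 CPM in the other 8 libraries, and Mbd6, a methyl-CpG domain protein that does not bind methylated DNA, at 5.72 CPM, against 15.9 to 21.7 CPM. Both were picked with their values known, as were Mta1 and Chd4 among the NuRD genes.

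The 12 NuRD genes, among which Mbd2 and Mbd3 work, split evenly. Of these 6 lay below 0 (median 0.0038), and 7 of 12 did so without EtOH 2 (median -0.03). Over all genes these shares were 50.2% and 50.4%. Mta2, with the highest CPM, averaged 250.4 ± 19.5 CPM in EtOH and 244 ± 8.03 CPM in Saline mice. Gatad2a, with the smallest p, averaged 103 ± 13.7 CPM in EtOH and 116 ± 6.93 CPM in Saline mice (log2 fold change -0.17 ± 0.10, adjusted p = 0.963, edgeR). EtOH 2 held the lowest value for 8 of the 12, against 25.7% of all genes, but the size of the drop was uneven. Mta1 had 3.28 CPM in that library and 22.5 to 29.5 CPM in the other 8. The remodelling ATPase gene Chd4 had 27.9 CPM there, against 63.2 to 69.5 CPM. The median log2 difference of the 12 genes was -0.19, and 3 of them lay more than 0.5 below the other libraries. Over all genes the median was 0.02, and 21.5% lay more than 0.5 below. Of the genes of base excision and demethylation, which finish what the Tet enzymes start, 14 of 16 were tested, 7 were below 0 and the median was 0.00086, and without EtOH 2 these were 8 of 14 and -0.03. Ogt, the glycosyltransferase that binds Tet2 and Tet3, averaged 328 ± 80.6 CPM in EtOH and 361 ± 72.4 CPM in Saline mice (log2 fold change -0.14 ± 0.18). Gadd45a, a stress gene linked to demethylation and the one with the smallest p, averaged 1.44 ± 0.684 CPM in EtOH and 0.836 ± 0.0902 CPM in Saline mice (log2 fold change 0.76 ± 0.39, adjusted p = 0.963, edgeR), and the change was 1.03 without EtOH 2.

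The genes most like the leading writer, eraser and reader over the 9 libraries were found by the root mean square difference of centred log2 CPM, which is 0 for the same profile. For Dnmt3a these were Nr2c2 (0.0702), Zfp513 (0.0779) and Arhgef12 (0.0849), where the median gene was at 0.312. For Tet2 they were Rnf214 (0.0639), Trrap (0.0659) and Srgap2 (0.0815), with the median gene at 0.363. For Mbd3 they were Zcchc6 (0.0602), Secisbp2 (0.0609) and Suv420h1 (0.0627), with the median gene at 0.266. Within the set, Tet1 and Mbd3 were closest (0.129), followed by Tet2 and Mbd2 (0.148). These profiles share the low value of EtOH 2.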

How the data were processed

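RNA from sorted microglia of 9 mice was sequenced, 1 library per mouse, in 2 groups given by the sample titles (EtOH, 4; Saline, 5). The authors deposited one table of raw counts by gene symbol, not normalized. HTSeq 0.6.1, STAR 2.4.2a, Trimmomatic 0.32 and the build GRCm38.p4 are listed in the submitters' processing notes. Nothing used here states their settings or whether strand was counted. By annotation 133 exon bases of Dnmt3a and 43 of Tet2 lie opposite another gene, under 1% of their exons.

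Genes were kept by filterByExpr (minimum count 10, total 15) and scaled by TMM. Tests were quasi-likelihood F tests in edgeR 4.0.16 (R 4.3.3; robust), Benjamini-Hochberg adjusted over all genes, threshold 0.05. SE and 95% intervals come from its F statistic. The biological coefficient of variation was 0.208. Log2 CPM used a prior count of 2. Lengths and GC content came from GENCODE M21 (94.8% of genes tested), promoter sequence from RefSeq GRCm38.p6. Partner genes named are, for each list, the one with the highest mean CPM and the one with the smallest p. Others (Usp7, Mbd6, Mta1, Chd4, Dnmt3l, Bhmt, Mki67, Top2a, Ccnb1, Rrm2, Mcm5) were named with their values known. The genes and lists were chosen with earlier results of these data known. Alternatives were DESeq2 1.42.0, limma-voom (limma 3.58.1), RLE size factors, no filter, a stricter filter, covariates, a replicate block, each age cohort alone, a loess trend on GC content and length (span 0.3) removed, plain library totals, and leaving out each library. On simulated data for ethanol against saline the test recovered 65% of 200 genes changed 2-fold among 12843 tested, and 89% of 200 changed 4-fold among 12858. It also called 10 and 6 genes that had not been changed. Each gene was drawn independently, with no library-wide shift as in EtOH 2 and no trend on GC content or length. With 200 genes changed at once, these shares do not give the power for a single changed gene.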

Additional observations from a re-analysis of the deposited data

How the results depend on the processing

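For ethanol against saline the count of genes passing stayed at 0, and that of the 9 genes at 0, under each alternative run (21, or 20 for Uhrf1), and the smallest adjusted p of any of the 9 was 0.793. Signs were less stable. With the GC content and length trend removed the log2 fold change was 0.076 for Dnmt3a, 0.15 for Tet1, 0.085 for Tet2 and 0.099 for Tet3. Limma-voom with sample weights gave 0.067 for Tet2, 0.038 for Tet3 and -0.50 for Uhrf1. The younger mice alone gave 0.041 for Dnmt3a, 0.16 for Tet2 and 0.15 for Tet3, and the older mice alone 0.063 for Dnmt3b and -0.20 for Uhrf1. There Dnmt1 was -0.083 in older and -0.52 in younger mice, and in older mice Dnmt3a was -0.50 and Tet3 -0.53. Without Saline 1 and EtOH 2 together, chosen after seeing the data, it was 0.094 for Tet2, 0.099 for Tet3 and -0.14 for Uhrf1. Leaving out 1 library at a time gave -0.51 to -0.20 for Dnmt1, -0.32 to -0.082 for Dnmt3a, -0.16 to 0.12 for Tet2, -0.34 to 0.076 for Tet3, -0.27 to 0.031 for Mbd2 and -0.36 to 0.48 for Uhrf1. The count of genes passing was 0 in each of these fits. Tet3 and Mbd2 turned above 0 without EtOH 2 only, Tet2 also without Saline 2 (0.0011), and Uhrf1 turned below 0 without EtOH 2, Saline 2 or Saline 4.

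Without EtOH 2 the count was 0 except with the library name suffix as a covariate, where 1 gene passed, none of the 9. For age the count was 97 with no count filter and 0 under the others run. Without 1 library the log2 fold change of age was -0.22 to 0.090 for Dnmt1, -0.18 to 0.029 for Dnmt3a, -0.067 to 0.0029 for Tet1 and -0.21 to 0.71 for Uhrf1. For the interaction the count was 1 with DESeq2, 53 with no count filter and 0 to 848 without 1 library, with 0 to 2 of the 9 genes passing, and the interaction was -0.78 to 0.083 for Mbd2, -0.098 to 0.35 for Mbd3 and -3.74 to 0.33 for Uhrf1. The cause of these was not tested.

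Replicate numbers are shared by the titles of both groups, but same-numbered libraries did not deviate together (correlations of -0.054 to -0.010 over 4 pairs, 0 of 4 most like their own number). With the replicate number as a block 0 genes passed for ethanol (240 under the unadjusted threshold), and for age 0 (801), where Dnmt3b had a log2 fold change of 0.20, Tet3 -0.94 (under the unadjusted threshold, adjusted p = 0.754), Tet2 -0.56, Mbd2 -0.45, Dnmt3a -0.27, Mbd3 -0.27, Tet1 -0.09 and Uhrf1 0.95. Of these all but Dnmt3b lie further from 0 than without the block. Only replicate numbers 2 and 3 pair an older with a younger mouse. With the block the age values therefore rest on EtOH 2, Saline 2, Saline 3 and EtOH 3. Uhrf1 had 2 to 65 counts, and the stricter filter removed it.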

Other observations

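The methionine and folate cycle supplies the methyl groups that the DNA methyltransferases use, and 16 of its 18 listed genes were tested. Of these 5 had a log2 fold change below 0 in ethanol against saline (50.2% of all genes), the median was 0.08, and 0 passed in edgeR. Without EtOH 2 it was 4 of 16 (50.4% of all genes), with a median of 0.07. Mat2a, which encodes the enzyme that makes S-adenosylmethionine, had the highest CPM, at 278 ± 27.2 CPM in EtOH mice (SD, n = 4) and 281 ± 37.4 CPM in Saline mice (SD, n = 5). Mat2b, its regulatory subunit and the gene with the smallest p, averaged 108 ± 12.8 CPM in EtOH and 93.2 ± 6.71 CPM in Saline mice (log2 fold change 0.22 ± 0.09, adjusted p = 0.963, edgeR), and the change was 0.14 without EtOH 2. It was highest in EtOH 2, at 125.7 CPM, against 83.9 to 110.3 CPM in the other 8 libraries. Bhmt, which in liver remakes methionine from betaine, was under 0.5 CPM in every library.

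Of the replication and cell cycle list, 12 of 16 genes were tested, 6 were below 0 (50.2% of all genes) and the median was -0.0048. Without EtOH 2 it was 8 of 13 (50.4% of all genes), with a median of -0.06. Mcm3, a subunit of the replicative helicase with the highest CPM, averaged 73.3 ± 9.74 CPM in EtOH and 71.7 ± 5.69 CPM in Saline mice, and Mcm6, with the smallest p, 22.1 ± 4.41 CPM in EtOH and 25.8 ± 2.10 CPM in Saline mice (log2 fold change -0.23 ± 0.14, adjusted p = 0.963, edgeR).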
